A study of Oryza sativa with 13 samples.

Results

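In the rice embryo, 2016 methylated regions carried a methylation peak at 3 days after pollination (DAP), had none at 9 DAP, and had no peak at any stage in the endosperm, the nutritive tissue that develops beside the embryo. They were 2.86% of the 70419 regions of the series and are called lost regions here. They were chosen by the presence or absence of listed peaks in all 7 libraries of the japonica cultivar ZH-11: 3 of embryo, dissected at 3, 6 and 9 DAP, and 4 of endosperm, dissected at 2, 3, 6 and 9 DAP. A region was a stretch of touching or overlapping peaks, and 1 bp of overlap counted as presence. Of the lost regions, 1168 had a peak at 3 DAP only and 848 had peaks at both 3 and 6 DAP. All plants were grown in a phytotron. The tissues were separated by hand and carry no purity measure in the lists. Each tissue and stage was 1 library, so no value below has a replicate error and no test was run. Exact intervals (95%, Clopper-Pearson for shares, order statistics for medians) cover counting error alone and treat regions as independent.

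Plant DNA is methylated at cytosines in the CG, CHG and CHH contexts, where H is any base but G. Methyltransferases such as MET1 and CMT3 copy the mark after replication, and RNA-directed methylation places it anew. A mark can be lost passively, when a dividing cell fails to copy it, or actively, when DNA glycosylases of the ROS1 and DEMETER family cut the methylated base out. In rice endosperm the maternal genome is known to be partly demethylated, while the embryo keeps most of its methylation. The assay used here, methylated DNA immunoprecipitation followed by sequencing, pulls down fragments with an antibody against the methylated base. It therefore reads enrichment over fragments, not the level or context of single cytosines. In a dissected tissue, fewer methylated cells and less methylation per cell cannot be told apart.

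Depth was 8062289, 8231245 and 8423857 filtered tags for embryo at 3, 6 and 9 DAP, and 6833917 to 7465986 for endosperm. A tag is 1 aligned read. The 9 DAP embryo library, in which the lost regions have no peak, was thus the deepest, and it also had the longest list. Each peak has a deposited score, its p-value against the local background of its own library, put on a negative log10 scale and multiplied by 10, and no peak below a score of 50 was listed. A region without a listed peak may hold tags that did not reach that score, and the lists give no tag number for it.

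The choice by peak calls sets how many regions were lost, and its background is as follows. Among regions with no endosperm peak, 2016 of 17016 with a 3 DAP peak had none at 9 DAP, or 11.8% (11.4 to 12.3). Among regions with a peak in at least 1 endosperm list it was 3125 of 31260, or 10%, and over both kinds together it was 10.6%. Nothing is read from these shares, since the rule used the same peaks.

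Losses were the smaller side of the exchange in the regions without endosperm peaks. Against the 2016 lost regions stood 6330 gained regions, with no endosperm peak, a peak at 9 DAP and none at 3 DAP, a ratio of gained to lost regions of 3.14 (2.99 to 3.30). Where the endosperm had a peak, the balance ran the other way, with 3125 lost and 2452 gained, a ratio of 0.785 (0.744 to 0.828). Among regions present at 2 stages, 848 lost regions (3 and 6 DAP) stood against 2687 gained ones (6 and 9 DAP) without endosperm peaks, and 1733 against 1297 with them. The difference between the 2 balances has no replicate check. These counts come from the calls that the rule used, so they are a description. The 9 DAP list was also longer, with 55242 peaks against 51509 at 3 DAP. With equal numbers of highest-scoring peaks in each list, the ratio without endosperm peaks was 2.20.

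Among regions without endosperm peaks, patterns with a 9 DAP peak and without a 3 DAP peak were the more numerous. Those with an embryo peak at 1 stage only numbered 1168 at 3 DAP, 1623 at 6 DAP and 3643 at 9 DAP. Those lacking a peak at 1 stage numbered 848 without 9 DAP, 1285 without 6 DAP and 2687 without 3 DAP. In 13715 regions, called constant here, all 3 embryo stages had a peak. From 3 to 6 DAP, 2453 regions lost their peak, and in 1285 of these, 52.4% (50.4 to 54.4), a peak was listed again at 9 DAP. The 1168 regions present at 3 DAP only are the rest. A peak missing at 6 DAP was therefore more often listed again at 9 DAP than missing at both. The regions lost by 6 DAP and listed again are called interrupted here.

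Lost regions were short and their peaks lay close to the calling threshold. Their median length was 680 bp (667 to 689), against 850 bp in constant regions and 1025 bp over all regions, and they covered 1.52 Mb in all. The shortest was 344 bp and the longest 7992 bp, and 21 of the 2016 (1.04%) reached 2 kb, against 15.7% of all regions. Few of the other regions without endosperm peaks reached 2 kb either, with 1.71% of constant, 0.964% of gained and 1.95% of interrupted regions. At 3 DAP their median score was 63.9 (63.1 to 64.8), against 122 (120 to 124) in constant regions. Their median fold enrichment, the deposited ratio of a peak to its local background, was 5.53 against 7.14. Their median tag number was 40, or 4.96 tags per 1000000 filtered tags (RPM), against 58 tags, or 7.19 RPM, in constant regions. Since the rule used whether these peaks were called, the values describe the choice and test nothing.

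The regions with peaks at 3 and 6 DAP were a little stronger at 3 DAP than those at 3 DAP only. Their median score was 68.4 (66.7 to 69.7) against 61.3 (60.4 to 62.2), their median fold enrichment 5.80 against 5.36 and their median length 704 bp against 657.5 bp. A 3 DAP score under 60 was found in 30.8% of the regions at 3 and 6 DAP and 46.1% of the regions at 3 DAP only. Interrupted regions lay between, with a median score of 65.9 and 33.7% under 60. Gained regions had a median score of 71.2 at 9 DAP, against 151 in constant regions at that stage, and a median length of 698 bp. Lost, gained and interrupted regions thus all had median scores far under that of constant regions at the same stage, whatever the direction of the change.

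**Figure D1:**
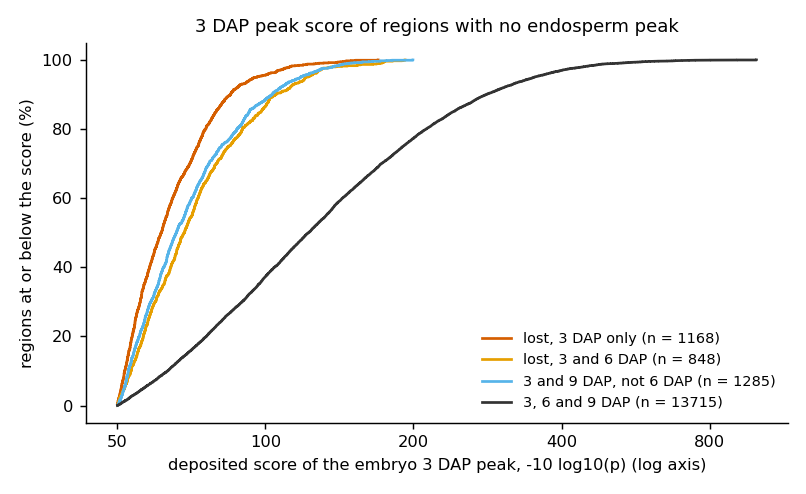
Cumulative share of regions (%) against the deposited score of their embryo 3 DAP peak (log axis), for the 1168 and 848 lost regions, the 1285 interrupted and the 13715 constant regions, all without endosperm peaks. No lost region has a score above 192.25, while constant regions reach 996.79.

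At the threshold itself the values met. The 3 lost regions with the lowest 3 DAP scores had 50, 50.01 and 50.02, with 26, 41 and 34 tags. The 3 constant regions whose 9 DAP peaks were the lowest had 50.03, 50.04 and 50.05, with 101, 90 and 37 tags. Had those 9 DAP peaks scored slightly less, these regions would have been counted as lost.

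The share of regions lost fell steeply with the 3 DAP score. Without endosperm peaks it was 35.3% (33.3 to 37.3) at scores of 50 to 60, 22.9% at 60 to 80, 10.6% at 80 to 100, 4.0% at 100 to 150 and 0.771% at 150 to 200. At a score of 200 or more, 0 of 3107 regions were lost, where a count of 0, set at 3 counts of the total, allows a share of up to 0.0966%, and the exact interval reaches 0.119%. At the same scores the gained share, the part of 9 DAP regions with no 3 DAP peak, was higher throughout. It was 67.8% (65.9 to 69.5) at scores of 50 to 60, 21.4% at 100 to 150 and 7.22% at 150 to 200, and of the 4467 regions with a 9 DAP score of 200 or more, 41 (0.918%) had no 3 DAP peak.

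The lost share within score classes is given beside that of regions with endosperm peaks as a description, since the rule used the same calls. At scores of 50 to 60 the lost share was 35.3% (33.3 to 37.3) without and 44.8% (42.6 to 47.0) with endosperm peaks. It was 22.9% (21.6 to 24.4) against 31.1% (29.6 to 32.6) at 60 to 80, 10.6% (9.40 to 11.9) against 17.6% (16.3 to 19.0) at 80 to 100 and 4.0% (3.39 to 4.68) against 6.92% (6.31 to 7.57) at 100 to 150. The share without endosperm peaks was the lower value in each of these 4 classes, whereas of the total shares, 11.8% and 10%, it was the higher. A score of 200 was reached by 11312 of 31260 regions with endosperm peaks, of which 5 were lost, and 3107 of 17016 reached it without, of which 0 were lost. The gained share was 67.8% without against 38.8% with endosperm peaks at scores of 50 to 60, and 21.4% against 5.38% at 100 to 150.

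**Figure D2:**
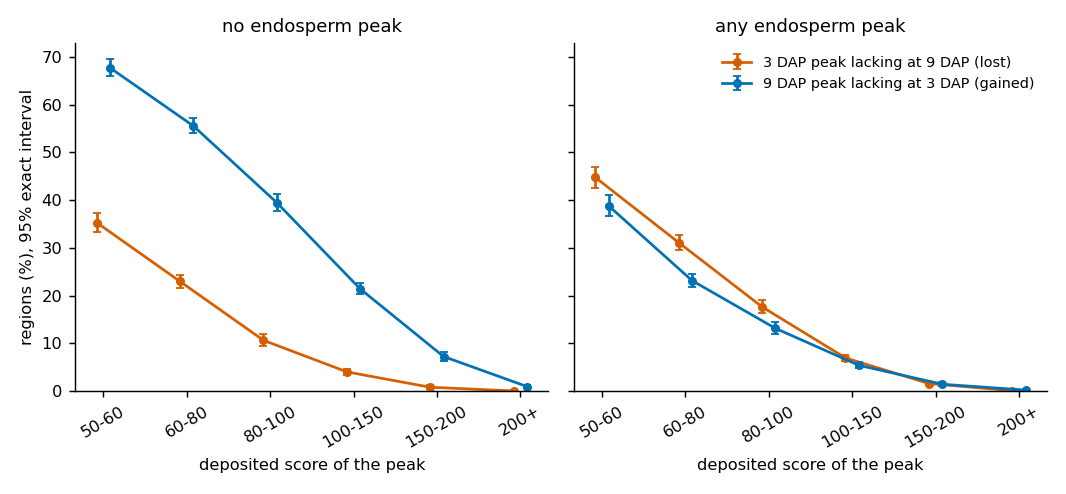
Share of regions (%) lost (3 DAP peak lacking at 9 DAP, by 3 DAP score) and gained (9 DAP peak lacking at 3 DAP, by 9 DAP score), in regions without and with endosperm peaks. Bars are 95% exact intervals. Without endosperm peaks the lost share runs from 35.3% to 0% and lies under the gained share in every class, while with endosperm peaks the lost share is the higher one up to a score of 200.

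The lost share did not run evenly with the number of endosperm lists that had a peak. It was 11.8% with none, 16.6% (15.3 to 17.9) with 1, 17.2% (15.9 to 18.6) with 2, 16.2% (15.1 to 17.3) with 3 and 6.51% (6.18 to 6.86) with all 4. Within the score class of 60 to 80 it was 22.9%, 32.8%, 35.9%, 34.0% and 27.1% in the same order. In that class regions without endosperm peaks thus had the lowest share of the 5 kinds. The rule used the same calls, so nothing is read from this order.

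In the 848 lost regions with peaks at both 3 and 6 DAP the level at 6 DAP was, in the median, close to that at 3 DAP. The median score was 68.4 at 3 DAP and 72.2 at 6 DAP, and the median level 5.09 RPM and 5.35 RPM. The median log2 ratio of 6 over 3 DAP was 0.02 (0.01 to 0.05) in RPM. The level was lower at 6 DAP in 375 of the 848 (44.2%, 40.8 to 47.6), and 1 region was at least 2-fold lower, while 8 were at least 2-fold higher. To be among the 848 a region needed a listed 6 DAP peak, and the lowest level of these was 3.16 RPM. Large falls were thus mostly left out by the rule, and nothing is read from their small number or from the like medians. Constant regions had a higher median log2 ratio, 0.08 (0.08 to 0.09), and 37.3% (36.5 to 38.1) of them were lower at 6 DAP. Their median score difference, 6 minus 3 DAP, was 13.2, against 2.24 in the lost regions.

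Compared at a like 3 DAP score, the lost regions had a lower ratio of 6 over 3 DAP than the constant ones in each class. At scores of 50 to 60 the median log2 RPM ratio of 6 over 3 DAP was 0.13 (0.10 to 0.17) in 261 lost regions and 0.24 (0.22 to 0.27) in 1031 constant regions. At 60 to 80 it was 0.03 (0.01 to 0.07) against 0.17 (0.15 to 0.18). At 80 to 100 it was -0.10 (-0.17 to -0.03) against 0.11 (0.10 to 0.13), and 61.9% of the 134 lost regions were lower at 6 DAP, against 33.8% of the constant ones. At 100 to 150 it was -0.09 (-0.21 to -0.03) against 0.07 (0.06 to 0.08). The intervals of the 2 kinds of region were apart in each of these 4 classes. Both kinds needed a listed 6 DAP peak, so falls were most limited in the class nearest the score limit. The 9 DAP call that separates the 2 kinds belongs to the rule, so these values are a description.

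A region present at 3 and 6 DAP alone was formed by 3 and 6 DAP peaks that touch, so some overlap is fixed by the rule, and its extent is given as a description. The 3 and 6 DAP peaks of a lost region shared a median of 86.2% (85.3 to 87.1) of the bases that either covered, against 86.6% in constant regions. In the 845 lost regions with 1 peak at each stage the summits lay a median of 26 bp apart, and 811 pairs (96.0%) were within 200 bp, the fragment length used in peak calling. In constant regions the median was 24 bp. In position, the 6 DAP peaks of lost regions lay about as close to the 3 DAP peaks as those of constant regions did.

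**Figure D3:**
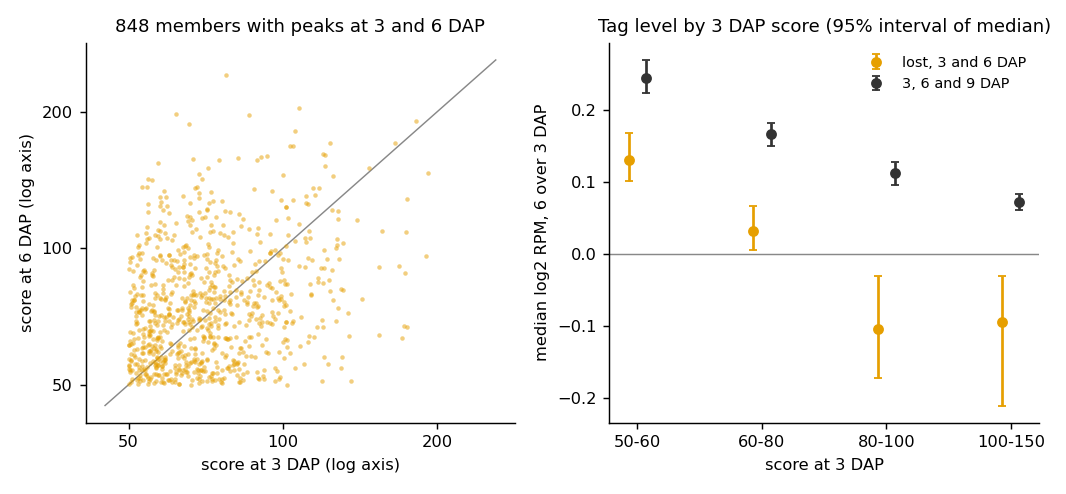
Left, deposited score at 6 DAP against 3 DAP (log axes) for the 848 lost regions with both peaks, 1 point a region, with the line of equal scores. Right, median log2 RPM ratio of 6 over 3 DAP by 3 DAP score for these regions and for constant regions, with 95% intervals of the median; the lost regions lie lower in each class, below 0 from a score of 80 upwards.

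Single lost regions illustrate the range. Positions are those of the deposited lists, whose genome build is not given in the sources used here, and apart from the embryo lists named, no list had a peak in them. The highest-scoring region at 3 DAP only, on chromosome 10 from 21506269 to 21510273, was 4005 bp long, with 409 tags (50.7 RPM), a score of 169.48 and a fold enrichment of 3.68. The next, on chromosome 6 from 23330474 to 23332384, held 273 tags (33.9 RPM) at a score of 152.31. It ended 20 bp from a neighbouring region that had peaks at 6 and 9 DAP but not at 3 DAP, so there the 3 DAP signal and the later signal lay side by side. Chromosome 1 from 3451200 to 3451586 was a compact case of 387 bp, with 40 tags, a score of 149.44 and a fold enrichment of 8.93, and the nearest 9 DAP peak was 9807 bp away. On chromosome 10 from 10693383 to 10694910 there were 102 tags at a score of 146.12. The region on chromosome 12 from 21879734 to 21880812, with 71 tags at a score of 145.2, lay 75 bp from another lost region present at 3 DAP only.

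The 5 regions with 3 and 6 DAP peaks named next were picked for the highest 3 DAP scores, so nothing is read from a lower 6 DAP score in them. Chromosome 7 from 6620333 to 6621748 had 95 tags (11.8 RPM, score 192.25) at 3 DAP and 55 tags (6.68 RPM, score 146.81) at 6 DAP. Chromosome 1 from 23997088 to 23997964 had a similar level at both stages, with 8.31 RPM at 3 DAP and 8.99 RPM at 6 DAP, while its scores were 189.71 and 96.08. Chromosome 6 from 3118496 to 3119147 had scores of 181.38 and 190.69 at 3 and 6 DAP and 75 and 73 tags. It lay 106 bp from a region with peaks in all 7 lists. On chromosome 10 from 9761184 to 9761680 the scores were 174.44 and 128.2, and on chromosome 7 from 20607318 to 20608090 they were 174.29 and 67.19.

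The longest lost regions were broad stretches of low fold enrichment. At 3 DAP only, chromosome 7 from 6164788 to 6170386 (5599 bp) had 505 tags at a score of 73.18. Chromosome 9 from 17614670 to 17620209 (5540 bp) had 489 tags, and 653 bp to its right lay a region with 6 and 9 DAP peaks. Chromosome 11 from 13730203 to 13735464 (5262 bp) had 613 tags. The fold enrichment of these 3 was 3.10, 3.55 and 3.17. Peaks at 3 and 6 DAP made up the longest of all, on chromosome 1 from 22400543 to 22408534 (7992 bp), with 110.0 RPM at 3 DAP and 75.3 RPM at 6 DAP. Chromosome 11 from 24020877 to 24028042 (7166 bp) had 44.2 RPM at 3 DAP and 78.6 RPM at 6 DAP.

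The region on chromosome 8 from 18108507 to 18114845 (6339 bp) had few peaks around it except at 6 DAP. It had 108 tags (13.4 RPM, score 77.55) at 3 DAP and 666 tags (80.9 RPM, score 240.93) at 6 DAP. A region with a 6 DAP peak only began 28 bp to its right. No 9 DAP peak lay nearer than 21626 bp, and the nearest endosperm peak was 14038 bp away. Within 10 kb on each side, peaks covered 0.995% at 3 DAP, 16.6% at 6 DAP and 0% at 9 DAP, and 0% in endosperm.

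The neighbourhoods of lost regions had slightly more peak cover at 9 DAP than at 3 DAP. Within 10 kb on each side, with the region itself left out, peaks covered 15.2%, 15.4% and 16.1% of the sequence in embryo at 3, 6 and 9 DAP, a ratio of 9 over 3 DAP of 1.06. Around constant regions the ratio was 1.08, around gained regions 1.05 and around all regions 1.04. The flanks of 1187 lost regions (58.9%, 56.7 to 61.0) had more covered length at 9 than at 3 DAP, and those of 790 (39.2%) had less. Around gained regions 57.6% (56.3 to 58.8) had more and 40.2% less. More covered length at 9 DAP was found around 61.1% (60.3 to 61.9) of constant and 55.9% (55.5 to 56.3) of all regions. In this measure, which the rule did not use, the intervals of lost and gained regions overlapped.

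Lost regions lay in surroundings that were richer in peaks than those of constant regions, most of all in endosperm. Endosperm peaks covered 12.1%, 12.1%, 12.4% and 12.7% of their flanks at 2, 3, 6 and 9 DAP, against 8.97% to 9.71% around constant and 10.7% to 11.4% around gained regions. Over all regions the range was 11.6% to 12.3%. Lost regions at 3 DAP only had 12.7% to 13.2%, and those at 3 and 6 DAP 11.1% to 11.9%. With 50 kb flanks endosperm cover was 12.4% to 13.1% around lost and 12.7% to 13.4% around all regions. For the embryo lists the means were 15.6% around lost, 13.9% around constant and 14.4% around gained regions. The embryo to endosperm ratio of flank cover was 1.27 around lost and 1.49 around constant regions, with 1.21 around all regions.

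**Figure D4:**
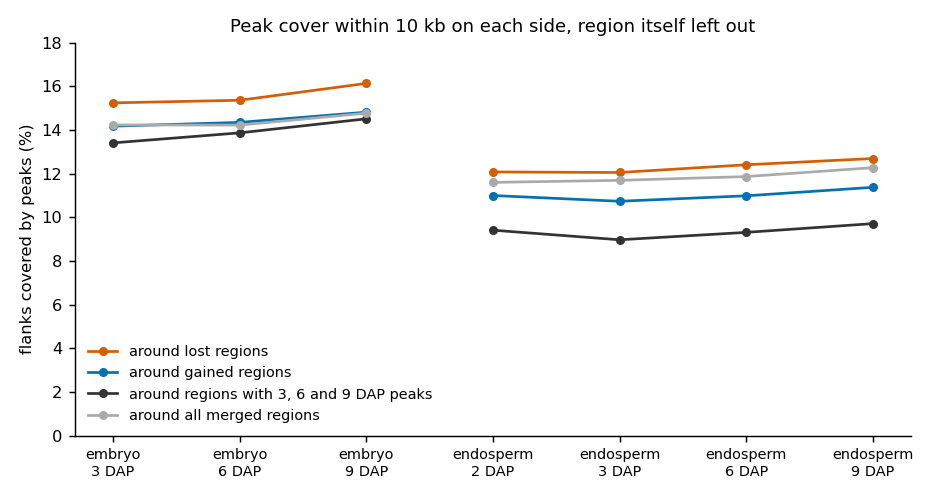
Share of the flanks (10 kb on each side, region left out) covered by peaks in each of the 7 libraries, around lost, gained, constant and all merged regions; 1 point is 1 library, with no replicate. Around lost regions the cover is 15.2% to 16.1% in embryo and 12.1% to 12.7% in endosperm, and it is highest at 9 DAP in both tissues.

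In the median, peaks of every list, 9 DAP included, lay nearer to lost regions than to regions at large. Within 200 bp a 9 DAP peak was less frequent than beside constant regions. The nearest 9 DAP peak lay a median of 1518 bp away (1413 to 1589), against 1505 bp (1463 to 1548) for constant regions and 1834 bp (1813 to 1854) for all regions. In 35.9% (33.8 to 38.0) of lost regions it was within 1 kb, against 38.3% (37.5 to 39.1) of constant and 32.6% (32.3 to 33.0) of all regions. Within 200 bp it was 6.00% (5.00 to 7.13) of lost, 8.28% (7.83 to 8.76) of constant and 6.34% (6.16 to 6.52) of all regions. The median distance to a 9 DAP peak was 1554 bp for gained, 1342 bp for interrupted and 1480 bp for regions at 6 DAP only. To a 3 DAP peak outside the region it was 1615.5 bp for lost and 2011 bp for all regions. To a 6 DAP peak it was 1569 bp for lost and 1934 bp for all regions. The nearest endosperm peak was 2620.5 to 2943 bp away in the median, depending on the stage. For constant regions this was 3788 to 4127 bp and for all regions 3018 to 3332 bp.

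Lost regions were spread almost evenly over the genome. All but 1 lay on the 12 chromosomes, at 5.07 per Mb on chromosome 11 to 5.79 per Mb on chromosome 9. All but 1 of 367 bins of 1 Mb held at least 1, with a median of 5 and at most 13, on chromosome 10 from 16000001 to 17000000. Losses exceeded gains in 2 bins. As a share of the 3 DAP regions without endosperm peaks, losses ran from 9.93% (8.66 to 11.3) on chromosome 3 to 14.4% (12.3 to 16.7) on chromosome 12.

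This even spread differed from that of constant regions. Bins were ranked by their endosperm peak cover. Lost, constant and gained regions were all chosen to have no endosperm peak, so a lower number in bins rich in such peaks is partly fixed in advance. The values are therefore a description. Lost regions numbered 5.15, 5.71, 5.95, 5.34 and 4.97 per Mb from the poorest to the richest quintile. Constant regions numbered 47.5, 44.1, 42.4, 31.1 and 18.2 per Mb, and gained regions 17.7, 18.6, 18.7, 17.3 and 13. The share of 3 DAP regions without endosperm peaks that was lost therefore went up along the quintiles, at 9.19% (8.33 to 10.1), 10.7%, 11.4%, 13.3% and 19.2% (17.4 to 21.0). Its base, the 3 DAP regions without endosperm peaks, fell from 4147 in the poorest to 1921 in the richest quintile. Per 1000 regions with a 3 DAP peak, whether or not endosperm had one, lost regions ran the other way, at 45.1, 45.2, 43.6, 39.3 and 37.0. The median 3 DAP score of the 3 DAP regions without endosperm peaks also went down, from 117 in the poorest to 86.6 in the richest quintile. At scores of 60 to 80 the lost share was 20.8%, 20.6%, 21.1%, 22.8% and 33.3% (29.2 to 37.7). At scores of 80 to 100 it was 8.45%, 10.9%, 9.07%, 13.8% and 13.5% (9.88 to 17.8), and at 100 to 150 it was 2.44% (1.54 to 3.67), 4.63%, 4.03%, 4.27% and 5.84% (3.78 to 8.56). At scores of 50 to 60 it ran from 33.1% to 39.8%, with overlapping intervals in the poorest (29.4 to 38.3) and richest (34.6 to 45.3) quintile.

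**Figure D5:**
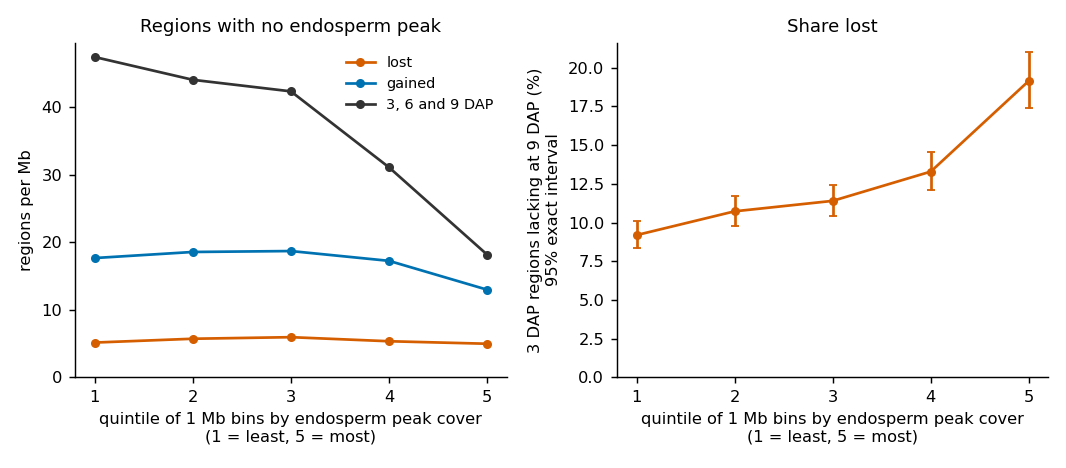
Left, lost, gained and constant regions per Mb in quintiles of 1 Mb bins ranked by endosperm peak cover. Right, share (%) of 3 DAP regions without endosperm peaks that had no 9 DAP peak, with 95% exact intervals. The share runs from 9.19% to 19.2% while its base falls from 4147 to 1921 regions, and the number of lost regions stays between 4.97 and 5.95 per Mb.

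Which regions counted as lost depended on the score at which peaks were listed. With peaks of a score of 100 or more in all lists, 1929 regions were lost, but 165 of them (8.55%) were among the 2016. In the full lists 1638 of the 1929 (84.9%) had a 9 DAP peak, and 126 had an endosperm peak and none at 9 DAP. With equal numbers of highest-scoring peaks, 32986 per list, 1675 regions were lost, of which 184 were among the 2016 and 1469 had a 9 DAP peak in the full lists. Under both of these settings the regions were mostly others. With a fold enrichment of 5 or more, 2658 regions were lost, and of the 2653 regions of the full lists that these fall in, 1409 (53.1%) were among the 2016 and 1069 (40.3%) had a 9 DAP peak. The 165 that had a 3 DAP score of 100 or more and no 9 DAP peak at all, 51 at 3 DAP only and 114 at 3 and 6 DAP, are 8.18% of the lost regions.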

How the data were processed

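Methylated DNA from hand-dissected ZH-11 embryo and endosperm was sequenced, 1 library per tissue and stage. The 6 samples of the cultivar 93-11 were not analysed here. Per the file headers, the authors called peaks per library with MACS 1.4.2, without a control, at a p-value limit of 1e-05, an effective genome size of 360 Mb, 1 tag kept per position, tags of 41 bp, fragments of 200 bp and a local background over 10 kb. Bowtie2 is also named, per the submitters' processing notes. The genome build is not given in the sources used here, so genes and sequences at the regions were not analysed. The deposited tag counts are raw counts per peak. The deposited score and the deposited fold enrichment (a ratio) belong to 1 peak, and the highest was taken where a region held several.

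Peaks were merged into regions with Python 3.11.15 and pandas 2.3.3, and RPM was the summed peak tags of a region in 1 library per 1000000 filtered tags. The region code was tested on simulated data. Intervals used scipy 1.17.1. PCR duplicates without molecular identifiers are not independent molecules. The named regions are the 5 highest 3 DAP scores and the 3 longest of each kind. The members and lists were chosen with earlier results of these data known. Score classes, quintiles, like-score comparisons and the balance with endosperm peaks were chosen after seeing the data.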

Additional observations from a re-analysis of the deposited data

How the results depend on the processing

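Stricter lists moved the values: with a score of 100 or more the lost share was 15.3%, the gained to lost ratio 2.76, and the median length, score and fold of lost regions 758 bp, 121 and 7.09. With a fold enrichment of 5 or more these were 16.0%, 2.30, 748 bp, 75 and 5.73, and with equal numbers of peaks 17.1%, 2.20, 701 bp, 119 and 7.14. Higher scores and folds follow from the filters; the cause of the other shifts was not tested. Merging peaks up to 200 bp apart gave a lost share of 11.3%. Without the endosperm 3 DAP list the ratio was 2.94 and the median length 690 bp. Lost regions within 200 bp and 5 kb of a 9 DAP peak were 6.00% and 88.3%, by construction of the wider window. With 5 kb flanks the cover ratio of 9 over 3 DAP was 1.09, against 1.10 around constant, 1.04 around gained and 1.05 around all regions. With 50 kb flanks it was 1.03, against 1.06, 1.05 and 1.03 in the same order. Lost regions thus lay above gained ones at 5 kb and below them at 50 kb, and the cause was not tested. The remaining 38 values, the 50 kb ratio of lost regions among them, held, and the number lost stayed between 1675 and 2658. Gains exceeded losses under each setting. Gene overlap and promoters were not run, for want of a build. No paired analysis was possible because each group is 1 library. A region missing at this depth had no called peak, which sets no limit on its methylation.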

Other observations

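Neighbours of lost, gained and constant regions were lost regions at similar shares. Of the 4030 regions neighbouring a lost region, 142 (3.52%, 2.98 to 4.14) were lost themselves, against 2.86% (2.78 to 2.95) of the neighbours of all regions. Adjacent regions of the same kind are counted from both sides, so the interval for a kind next to itself is too narrow. Next to gained regions the share was 3.23% (2.93 to 3.55) and next to constant regions 3.07% (2.87 to 3.28), and both intervals overlap that of the lost regions. Constant regions made up 20.9% (19.6 to 22.2) of the neighbours of lost regions and 19.5% of the neighbours of all regions, and 27.6% (27.0 to 28.1) of the neighbours of constant regions. There were 65 pairs of consecutive lost regions and 3 runs of 3. The shortest of the 3 runs of 3 spanned 7958 bp of chromosome 8, starting at 3647033. The other runs of 3, on chromosome 3, started at 5151962 (8864 bp) and at 32809906 (19044 bp). They were chosen after their values were seen, and no test was run on them.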
